A study of Mus musculus with 14 samples.

Results

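Mouse CD4+ T cells kept in interferon alpha from 2 h to 8 h, under inhibitors labelled for JAK2 or JAK3, lost RNA of activation genes, cytokines, lipid synthesis and ribosome building, and gained RNA of mitosis, of many antiviral genes and of resting T cell markers. The cells were isolated from the spleens of male C57BL/6 mice of 6 weeks by negative selection and activated for 48 h with CD3/CD28 beads. They were then given interferon alpha at 100 U/ml together with a JAK inhibitor at its IC80 (the dose that blocks most of the target's activity), and RNA was taken after 2 h or 8 h. The samples described are the 6 arrays, of 14 in the series, titled IFN.3885 (target label JAK2), IFN.6226 and IFN.6228 (both labelled JAK3), where IFN is the interferon and the digits are the compound's code, with 1 array per compound and time. They form 3 pairs of 8 h minus 2 h within a compound. The other 8 arrays carry compounds IFN.3404 (JAK1), IFN.6221 (JAK1/2), IFN.6222 (PAN) and IFN.2485 (TYK2) and enter only where named. Every one of the 14 samples got the beads, the interferon and an inhibitor, and no array lacking either agent was analysed here. Time in interferon, time with the inhibitor and time in culture cannot be told apart. The labels do not say whether animals were pooled or whether 2 h and 8 h samples came from the same culture, and the compounds are known only by code.

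Type I interferon binds a receptor made of IFNAR1 and IFNAR2, whose attached kinases TYK2 and JAK1 phosphorylate STAT proteins. STAT2 acts with IRF9 in a complex that binds the interferon-stimulated response element and switches on antiviral genes, while the gamma-activated sequence is bound by STAT dimers. JAK3 instead serves the receptors built with the common gamma chain, among them the interleukin-2 (IL-2) receptor, which signals through STAT5, and JAK2 serves receptors such as those of interferon gamma and IL-12. None of the labels of these 3 compounds names JAK1 or TYK2. An activated T cell grows, divides and makes cytokines, and the early genes of its activation are known for brief expression.

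The arrays (Affymetrix Mouse Gene 1.0 ST) gave 1 intensity per probe set, and all levels below are log2 intensities in the order IFN.3885, IFN.6226, IFN.6228. A change is the 8 h minus the 2 h level, as the mean ± SD over the 3 compounds (n = 3), where a change of 1 is 2-fold. Of 11851 genes tested, 4331 (36.5%) changed in the limma fit of the 6 arrays at an adjusted p under 0.05: 2304 rose (19.4%) and 2027 fell (17.1%). These shares are the background for every list count below. The median change of all genes was 0.00 and the median SD of the 3 changes was 0.14. That fit has 2 residual degrees of freedom and took its spread from genes of like brightness, with infinite prior degrees of freedom, so its p-values are too small to read for a single gene. The p given with a gene therefore comes from the fit of all 14 arrays (5 residual and 9.70 prior degrees of freedom), which called 3822 genes. Both fits called 2026 of the same genes as risen (17.1%) and 1730 as fallen (14.6%). No array was repeated, so p measures how unevenly the compounds changed and not the spread of repeated cultures.

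Among the called genes, 4238 moved the same way in all 3 compounds. A call in a fit paired within compound itself favours such agreement, and the share over all genes was not counted. Without IFN.6226 the count of calls was 1812 (1033 rose, 779 fell), without IFN.3885 it was 5601 (3170 fell) and without IFN.6228 it was 3028 (1200 fell). A total of 1763 genes stayed called in all 3 of these reduced fits. Changes over 2-fold were more often falls (122 genes) than rises (48 genes). Genes are not independent replicates, and across them the changes under the JAK3 compounds IFN.6226 and IFN.6228 correlated at r = 0.87, those under IFN.3885 and IFN.6226 at 0.80 and those under IFN.3885 and IFN.6228 at 0.69.

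The label of CD4+ T cells was checked against markers. CD4 T cell markers (6 of 8 with a probe set) summed to an intensity of 21826 to 23390 at 2 h and 27052 to 27777 at 8 h, and 5 of them rose, among them Cd4 by 0.37 and Cd3d by 0.44. Markers of B cells (6 of 7 with a probe set) summed to 1509 to 1619 and then to 2035 to 2265, and Ms4a1 (0.89 ± 0.20), Cd79a and Cd79b (lost without IFN.6226) rose. Those of CD8 T cells summed to 545 to 563 and then 704 to 771, and Cd8b1 rose by 0.48 (lost without IFN.6226) while Cd8a had no call. Platelet markers ran from 431 to 649 at 2 h and from 450 to 1175 at 8 h, where Ppbp was at 6.22, 7.78 and 7.88 at 2 h and 6.45, 8.77 and 9.42 at 8 h. Of 7 macrophage markers 6 had a probe set, with sums of 1061 to 1107 and then 1152 to 1261, Ctss rose by 0.37 (lost without IFN.6226) and Lyz2 fell by 0.52 (lost without IFN.6228), and Csf1r, Adgre1 and Cd14 lay below the filter on dim genes. Of 6 dendritic cell markers 5 lay below it (sums of 320 to 353 and 330 to 358), as did 5 of 6 granulocyte markers (327 to 366 and 350 to 354) and 4 of 6 of NK cells (887 to 1010 and 629 to 920). Of the NK cell markers above this filter, Gzmb fell by 0.56 and Eomes had no call. Erythroid markers were all below it, and those of muscle and fibroblasts had no call.

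**Figure D1:**
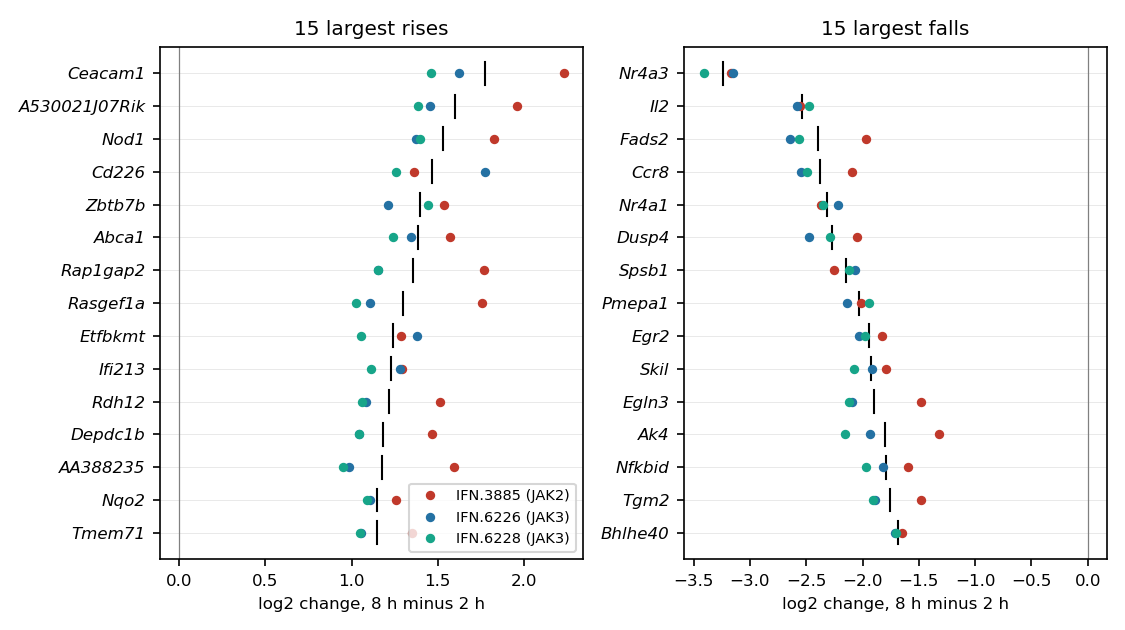
Change of the 15 genes with the greatest rises and the 15 with the greatest falls among called genes that moved the same way in all 3 compounds. The x axis is the log2 change, 8 h minus 2 h. Points are compounds and black bars their mean, and all points of a gene lie on 1 side of 0, from Nr4a3 at -3.24 to Ceacam1 at 1.78.

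The greatest falls included genes of T cell activation, beside genes of other lists and of none. Nr4a3, an orphan nuclear receptor switched on by the T cell receptor, was at 10.84, 10.60 and 10.85 at 2 h and 7.68, 7.45 and 7.44 at 8 h, a change of -3.24 ± 0.15 or 9.46-fold (adjusted p = 4.29e-10). All 3 arrays at 8 h were below all 3 at 2 h by a wide margin. Il2, the growth cytokine of T cells, was at 9.84, 9.28 and 9.27 at 2 h and 7.29, 6.69 and 6.80 at 8 h (-2.54 ± 0.06, adjusted p = 4.29e-10). Its levels under IFN.3885 were above those under both JAK3 compounds at either time, and the 3 falls were nearly equal. Ccr8, a chemokine receptor, fell by 2.38, and Fads2, a fatty acid desaturase, by 2.39. Nr4a1 and Egr2, factors that follow T cell receptor signals, changed by -2.31 and -1.94, both called. Also among the 15 greatest were Dusp4, a MAP kinase phosphatase (-2.27), Spsb1 (-2.15), Pmepa1 (-2.03), Skil (-1.93), the hypoxia-linked prolyl hydroxylase Egln3 (-1.90), the adenylate kinase Ak4 (-1.80), Nfkbid (-1.79), the transglutaminase Tgm2 (-1.76) and the transcription factor Bhlhe40 (-1.69). The spread among compounds was widest for Ak4, with changes of -1.32, -1.93 and -2.16, and for Fads2, with -1.97, -2.64 and -2.56. In both, IFN.3885 had the smallest fall.

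The greatest rises were smaller. Ceacam1, an adhesion and inhibitory receptor, was at 6.32, 6.62 and 6.70 at 2 h and 8.55, 8.25 and 8.16 at 8 h, a change of 1.78 ± 0.41 or 3.42-fold (adjusted p = 6.31e-07). Its 3 arrays at 2 h lay just above the filter on dim genes, at 6.27, and all 3 at 8 h were far above them. Nod1, an intracellular sensor of bacterial peptidoglycan, rose by 1.53 and Cd226, a costimulatory receptor, by 1.47. Zbtb7b, the factor ThPOK that directs thymocytes to the CD4 lineage, was at 8.45, 8.45 and 8.32 at 2 h and 9.99, 9.67 and 9.77 at 8 h (1.40 ± 0.17, adjusted p = 4.11e-07). Abca1, the cholesterol exporter, rose by 1.39. The others were A530021J07Rik (1.60), Rap1gap2 (1.36), Rasgef1a (1.30), Etfbkmt (1.24), Ifi213, of the interferon-inducible p200 family (1.23), Rdh12 (1.22), Depdc1b (1.18), AA388235 (1.18), Nqo2 (1.15) and Tmem71 (1.15). Among these 15 the spread was widest for Ceacam1 and Rasgef1a, where IFN.3885 changed most (2.23, 1.63 and 1.46, and 1.76, 1.11 and 1.03). At 2 h under IFN.3885, Rdh12 (6.20) and AA388235 (6.22) lay below the filter level of 6.27. Rap1gap2 (6.48) and A530021J07Rik (6.58) lay not far above it on that array. Each of them also rose most under IFN.3885.

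The antiviral genes are the targets of the pathway that these compounds' labels do not name, and 4 promoters are printed, those of the list members with the largest moderated t statistics that hold a motif match, to show what lies before their starts. Each is the 250 bases before a RefSeq start (GRCm38.p6), 5′ to 3′ on the gene's strand, with motif matches in capitals. The motifs searched on both strands were GAAANNGAAA, a form of the interferon-stimulated response element, and TTCNNNGAA, the gamma-activated sequence.
Ifi203 (chr1:173942493-173942742, minus strand): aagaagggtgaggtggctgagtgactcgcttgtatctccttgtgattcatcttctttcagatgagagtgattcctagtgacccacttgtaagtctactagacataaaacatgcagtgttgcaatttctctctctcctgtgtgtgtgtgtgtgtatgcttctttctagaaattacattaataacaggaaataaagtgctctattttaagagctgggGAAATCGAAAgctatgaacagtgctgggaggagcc
Oas3 (chr5:120777660-120777909, minus strand): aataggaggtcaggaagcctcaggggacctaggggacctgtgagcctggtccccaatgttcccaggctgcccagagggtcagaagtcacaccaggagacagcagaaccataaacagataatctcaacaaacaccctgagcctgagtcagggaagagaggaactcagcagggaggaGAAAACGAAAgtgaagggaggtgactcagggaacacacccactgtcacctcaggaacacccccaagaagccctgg
Gbp5 (chr3:142496684-142496933, plus strand): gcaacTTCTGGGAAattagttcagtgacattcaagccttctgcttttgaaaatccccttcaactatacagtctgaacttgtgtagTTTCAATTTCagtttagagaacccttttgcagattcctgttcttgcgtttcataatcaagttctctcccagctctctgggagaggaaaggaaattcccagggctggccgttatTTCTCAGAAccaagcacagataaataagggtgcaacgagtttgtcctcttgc
Cxcl10 (chr5:92348890-92349139, minus strand): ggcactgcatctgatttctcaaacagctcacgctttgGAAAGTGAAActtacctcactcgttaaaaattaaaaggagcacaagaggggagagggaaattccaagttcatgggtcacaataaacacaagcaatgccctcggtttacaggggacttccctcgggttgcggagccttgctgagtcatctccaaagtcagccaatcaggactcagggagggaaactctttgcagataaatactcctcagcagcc
In Ifi203 and Oas3, which rose, the response element lies from -35 to -26 and from -75 to -66 relative to the start. In Gbp5 and Cxcl10, which fell, it lies from -165 to -156 and from -213 to -204, and Gbp5 also holds the gamma-activated sequence from -245 to -237 and from -52 to -44. Of the interferon-list genes that rose, 27 of 36 had a promoter in the table and 11 of these (40.7%) held the response element. All 4 with a promoter, of 8 that fell, held it, as did 4 of 23 (17.4%) not called. Of the 9497 tested genes with a promoter, 3.06% held it and 7.11% held the gamma-activated sequence. Of all 32851 RefSeq promoters the shares were 2.98% and 7.02%. The gamma-activated sequence was found in 3 of the 27, in 2 of the 4 and in 2 of the 23. A match describes letters in this window and is no evidence of binding.

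Of the 63 tested members of the type I interferon list, 35 rose and 3 fell, and the median change was 0.34, with 0.31, 0.33 and 0.27 in the single compounds. The 14-array fit also called 33 of the rises and all 3 falls. Oas3, which makes the oligoadenylates that activate RNase L, was at 9.42, 9.31 and 9.21 at 2 h and 10.49, 10.37 and 10.39 at 8 h (1.11 ± 0.07, adjusted p = 3.55e-07). Sp100, a component of nuclear bodies, was at 11.42, 11.36 and 11.49 at 2 h and 12.25, 12.23 and 12.24 at 8 h (0.81 ± 0.06, adjusted p = 4.17e-07), and Ifi203, of the p200 family, at 11.12, 11.26 and 11.15 at 2 h and 11.91, 12.005 and 11.91 at 8 h (0.77 ± 0.03). In these genes the 2 h and 8 h arrays were fully apart and the compounds lay close together. The ubiquitin ligase Herc6 rose by 1.09, Irf7, the factor that amplifies interferon production, by 0.65 and Usp18, the brake on the interferon receptor, by 0.46. Ifit1, which binds viral RNA caps, rose by 0.34 and Rtp4 by 0.63. Without IFN.3885 the list held 44 rises and 7 falls, and the falls numbered 1 without IFN.6226 and 2 without IFN.6228.

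**Figure D2:**
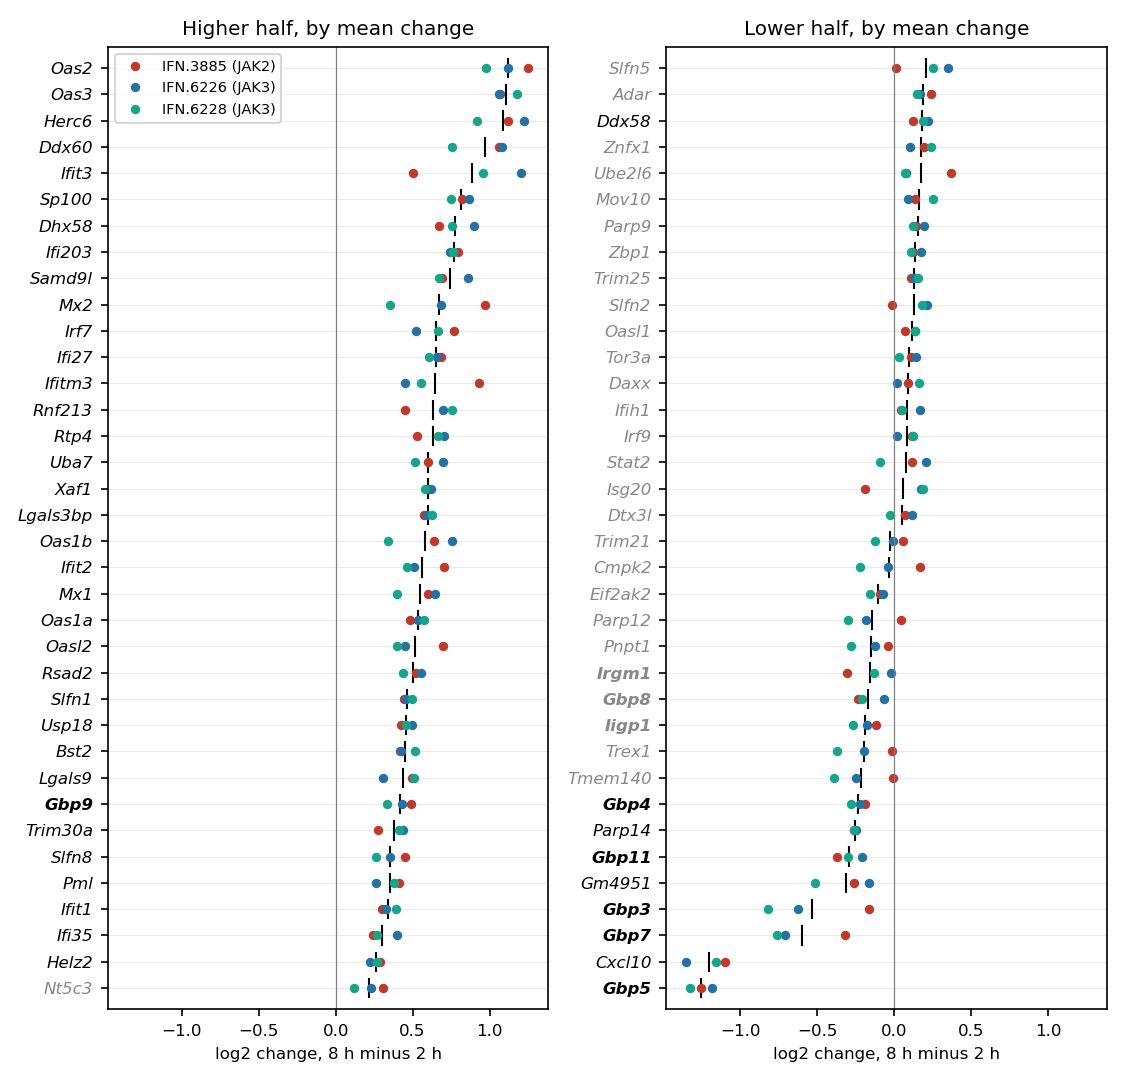
Change of the 63 tested genes of the type I interferon list and the 9 tested interferon-inducible GTPases (bold names), sorted by mean. The x axis is the log2 change, 8 h minus 2 h, with points for compounds, black bars for their mean and grey names for genes not called. Oas2, Oas3 and Herc6 head the plot, each above 1 on average, and Gbp5 and Cxcl10 close it, each below -1.

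The interferon list split by gene. Oas2 rose by 1.12, the helicase Ddx60 by 0.97 and Ifit3 by 0.89, the last with compound changes of 0.50, 1.20 and 0.96, lowest under IFN.3885. Rsad2, the antiviral enzyme viperin, was at 9.08, 8.90 and 9.06 at 2 h and 9.60, 9.45 and 9.50 at 8 h and was called by the 6-array fit, while the fit of 14 arrays gave an adjusted p of 0.0679. Mx1, an antiviral GTPase, rose by 0.55, a call lost without IFN.6226. Of the transcription factors of the pathway, Irf9 changed by 0.08 ± 0.06 (adjusted p = 0.405) and Stat2 by 0.08 ± 0.16 (adjusted p = 0.6), without a call. Jak3 was not analysed here. The 3 members that fell were Cxcl10, Gm4951 (-0.31) and Parp14 (-0.26), and neither of the last pair was called without IFN.6226. Cxcl10, a chemokine that draws CXCR3-bearing T cells, was at 8.09, 8.29 and 8.14 at 2 h and 6.99, 6.94 and 6.98 at 8 h (-1.20 ± 0.13, adjusted p = 2.03e-06), with all arrays at 8 h below all arrays at 2 h.

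Interferon-inducible GTPases, which attack the vacuoles of intracellular microbes, went the other way: 5 of 9 tested fell and 1 rose, with a median of -0.23. Gbp5, the only one of them to fall over 2-fold, was at 9.83, 9.54 and 9.59 at 2 h and 8.57, 8.35 and 8.26 at 8 h (-1.26 ± 0.07, adjusted p = 1.76e-07). Gbp7 fell by 0.60, least under IFN.3885 (-0.32, -0.71 and -0.77), and Gbp3 by 0.53 (lost without IFN.6226). Gbp9 was at 9.88, 10.07 and 10.11 at 2 h and 10.37, 10.50 and 10.44 at 8 h and rose by 0.42. Thus Gbp5 and Gbp9, from a single gene family, separated the 2 times in opposite directions in every compound. The count of falls was 7 without IFN.3885, 2 without IFN.6226 and 3 without IFN.6228. Near-identical members of this family can share probes, so their values are uncertain.

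Antigen presentation genes moved little. In the MHC class I list of 14 tested genes 5 rose and 2 fell, with a median of 0.11. Tapbp, the bridge between the peptide transporter and class I molecules, rose by 0.34 (adjusted p = 0.000784), the immunoproteasome subunit Psmb10 by 0.31 and Pdia3 by 0.25. Nlrc5, the transactivator of class I genes, was called as lower by 0.21 in the 6-array fit, against an adjusted p of 0.0506 in the fit of 14. Without IFN.6226 or without IFN.6228 the list had 3 rises, and both falls were lost.

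The receptors and kinases of the pathway moved in both directions. Of 23 tested JAK-STAT components 7 rose (30.4%, 4 without IFN.6226) and 6 fell (26.1%), against 19.4% and 17.1% of all genes. The receptor chain Ifnar2 was at 10.21, 10.27 and 10.25 at 2 h and 10.68, 10.83 and 10.81 at 8 h (0.53 ± 0.05, adjusted p = 3.4e-05), with no overlap between times, while Ifnar1 changed by -0.17 ± 0.10 (adjusted p = 0.0681). Jak1 rose by 0.34 and Stat4, which serves the IL-12 receptor, by 0.41. Tyk2 rose by 0.38, a call lost without IFN.6226. Jak2 fell by 0.32 and Stat5a by 0.60, whereas Stat5b changed by 0.05 ± 0.05 (adjusted p = 0.623). Stat3 fell by 0.29 (not called without IFN.6226). Il12rb2, the signalling chain of the IL-12 receptor, was at 10.56, 9.92 and 9.85 at 2 h and 9.02, 8.63 and 8.60 at 8 h (-1.36 ± 0.15, adjusted p = 1e-06). It was higher under IFN.3885 than under both JAK3 compounds at each time. Ifngr2, a chain of the interferon gamma receptor, fell by 0.72, and the factor Irf1 was at 10.38, 10.28 and 10.44 at 2 h and 10.14, 10.20 and 10.33 at 8 h, with no call.

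Among feedback inhibitors of JAK-STAT signalling 22.2% rose and 27.8% fell, not far from the 19.4% and 17.1% of all genes for so short a list. Cish, an SH2 protein that blocks the IL-2 receptor, was at 10.61, 9.20 and 9.05 at 2 h and 9.01, 7.71 and 7.82 at 8 h (-1.44 ± 0.19, adjusted p = 5.78e-06). Its level under IFN.3885 at 8 h was just below those under IFN.6226 and IFN.6228 at 2 h, while within each compound the times were over 1 unit apart. Socs2 showed the same order, at 10.79, 9.88 and 9.86 at 2 h and 9.40, 8.49 and 8.52 at 8 h (-1.37 ± 0.03, adjusted p = 1.44e-07). Socs1 fell by 0.79, and Socs3 changed by -0.18 ± 0.20 (adjusted p = 0.349). Of the 18 feedback genes tested 4 rose (1 without IFN.6226) and 5 fell (10 without IFN.3885).

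**Figure D3:**
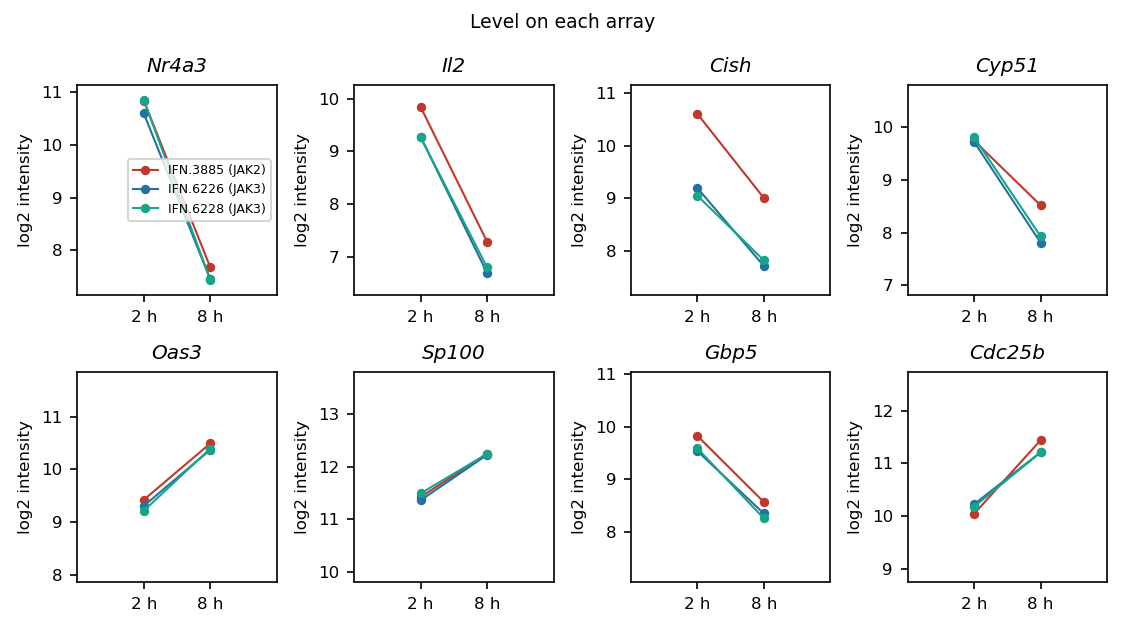
Level of 8 genes on each of the 6 arrays. The y axis is the log2 intensity, spanning 4 units in each panel, the x axis the time in interferon and inhibitor, and a line joins the 2 arrays of a compound. Cish and Il2 lie higher under IFN.3885 at both times, and Oas3, Sp100 and Cdc25b rise in all 3 compounds.

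Genes induced by IL-2 and STAT5 fell as a group. Of 37 tested, 24 fell and 3 rose, and the median change was -0.54. Il2ra, the high-affinity IL-2 receptor chain, was at 12.93, 12.73 and 12.72 at 2 h and 12.35, 11.91 and 11.89 at 8 h (-0.75 ± 0.14, adjusted p = 1.72e-06). The 2 times did not overlap. Slc7a5, a large neutral amino acid transporter, fell by 1.63, Ahr, the aryl hydrocarbon receptor, by 1.66, the cell cycle kinase Cdk6 by 1.35 and the costimulatory receptor Tnfrsf4 (OX40) by 1.03. Bcl2, the survival factor, fell by 0.69 and Myc by 0.54 (adjusted p = 0.00024). Pim1, a kinase that STAT5 induces, changed by -0.01 ± 0.13, with no call.

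Cytokine RNA fell too. Of 13 tested T helper cytokines 9 fell and 2 rose (1 without IFN.6226), with a median of -0.54. Tnf was at 10.23, 9.99996 and 10.02 at 2 h and 9.08, 8.84 and 8.96 at 8 h (-1.13 ± 0.06, adjusted p = 5.89e-07), without overlap. Lif, a cytokine of the IL-6 family, was at 8.85, 7.48 and 7.58 at 2 h and 6.65, 6.43 and 6.15 at 8 h (-1.56 ± 0.58), and at 2 h its level under IFN.3885 was above those under IFN.6226 and IFN.6228 by over 1 unit. Ifng was at 7.52, 6.94 and 7.11 at 2 h and 6.18, 6.24 and 6.45 at 8 h (-0.90 ± 0.39, adjusted p = 0.000536), the 8 h levels all near the filter. Il4 (-0.67) and Il13 (-0.54) of type 2 helper cells also fell, and Ltb rose by 0.38. Of 7 chemokines tested, Ccl5, which draws effector cells, rose by 0.87 and Ccl17 fell by 0.62. Ccl22 also rose, by 0.31, a call lost without any of the 3 compounds. Of 11 chemokine receptors 4 rose (2 without IFN.6226) and 3 fell. Cxcr3, the receptor of Cxcl10, was at 9.68, 9.76 and 9.65 at 2 h and 10.41, 10.42 and 10.28 at 8 h (0.67 ± 0.05, adjusted p = 2.94e-05), and Ccr4 fell by 0.82. Cxcr3 thus rose while the RNA of its ligand fell, in all 3 compounds.

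The early genes of T cell activation gave the lowest list median, -0.99, with 23 of 31 tested falling and 3 rising. Besides Nr4a3, Nr4a1, Egr2 and Dusp4, Cd69, an early surface marker of activation, was at 11.29, 11.03 and 11.16 at 2 h and 10.11, 10.05 and 10.0003 at 8 h (-1.11 ± 0.11, adjusted p = 2.18e-07). The immediate early factors Fos (-0.89), Jun (-0.99) and Egr1 (-1.04) fell, while Junb changed by -0.22 ± 0.08 and Dusp2 by -0.01 ± 0.05, without a call. Btg2, an antiproliferative gene, rose by 0.72. Among NF-kB subunits and their feedback inhibitors, 14 of 21 fell (8 without IFN.6226) and 2 rose. Nfkbid was at 9.85, 9.69 and 9.87 at 2 h and 8.26, 7.87 and 7.90 at 8 h (-1.79 ± 0.19, adjusted p = 8.97e-09), Nfkb2 fell by 1.23, Bcl3 by 0.89 and Nfkbia, which holds NF-kB in the cytoplasm, by 0.74.

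Genes of the TGF-beta pathway fell in 14 of 20 tested cases (8 without IFN.6226) and 1 rose, Itgae, a call lost without IFN.6226. Pmepa1, a target and inhibitor of the pathway, was at 11.83, 11.69 and 11.53 at 2 h and 9.82, 9.56 and 9.58 at 8 h (-2.03 ± 0.10, adjusted p = 4.29e-10), and Tgif1, a SMAD corepressor, fell by 1.37. The inhibitor Smad7 fell by 1.12, least under IFN.3885 (-0.73, -1.31 and -1.32). Of 25 members of the TNF superfamily, ligands and receptors together, 11 fell and 6 rose. Tnfrsf9 (4-1BB) fell by 0.89, and Cd27, a costimulatory receptor of naive and memory cells, rose by 0.70.

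Of 22 T helper lineage factors 8 rose (4 without IFN.6226, 5 without IFN.6228) and 7 fell. Besides Zbtb7b and Ahr, Irf8 fell by 1.39 and Runx3, which supports cytotoxic and type 1 helper programmes, by 1.12. Irf4, a factor whose level follows the strength of the T cell receptor signal, fell by 0.78, while Gata3 of type 2 helper cells changed by 0.07 ± 0.13. The inhibitory ligand Cd274 (PD-L1), an interferon target in many cells, was at 9.80, 9.68 and 9.94 at 2 h and 8.80, 8.55 and 8.54 at 8 h (-1.18 ± 0.21, adjusted p = 4.3e-07), with all 8 h levels below all 2 h levels. Over 25 costimulatory and inhibitory receptors tested 12 rose, and 8 fell (5 without IFN.6226, 4 without IFN.6228).

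Genes of resting and circulating T cells rose. Of 28 in the quiescence and homing list 15 rose, and 2 fell (5 without IFN.3885, 1 without IFN.6226 or IFN.6228), with a median of 0.21. Pik3ip1, an inhibitor of phosphoinositide 3-kinase, was at 8.57, 9.05 and 9.02 at 2 h and 9.80, 10.01 and 10.02 at 8 h (1.07 ± 0.15, adjusted p = 4.11e-07). Ms4a4b, a membrane protein of naive T cells, rose by 1.03 and S1pr4, a receptor for sphingosine 1-phosphate, by 0.83, while Ccr7 changed by 0.01 ± 0.04, without a call. The 2 falls were Igfbp4 (-0.68, with compound changes of 0.02, -0.98 and -1.07) and Bach2 (-0.17, lost without IFN.6226 or IFN.6228). Of 25 T cell receptor components 14 rose and 3 fell (all 3 lost without IFN.6226), with Txk, a Tec-family kinase, at 0.84, Vav1 at 0.56 and Prkcq at 0.55. Of 17 integrins and adhesion genes 11 rose, and 2 fell (both lost without IFN.6226, 1 without IFN.6228). Itga4, the alpha chain of VLA-4, was at 10.73, 10.79 and 10.67 at 2 h and 11.52, 11.45 and 11.49 at 8 h (0.76 ± 0.08, adjusted p = 1.16e-06), its partner Itgb7 rose by 0.77, and Selplg, the selectin ligand PSGL-1, by 0.50. The summed B cell markers rose over the same hours, from 1509 to 1619 up to 2035 to 2265, and their part in these rises was not tested. In such bulk samples, more cells of a type and more RNA per cell cannot be told apart.

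Lipid synthesis fell. Among 21 tested genes of sterol synthesis 18 fell (11 without IFN.6226), and the median was -0.56. Cyp51, the lanosterol demethylase, was at 9.75, 9.73 and 9.81 at 2 h and 8.52, 7.81 and 7.93 at 8 h (-1.68 ± 0.39, adjusted p = 2.9e-07). All 3 levels at 8 h were below those at 2 h, and the level under IFN.3885 at 8 h was the highest of them. Lss, the lanosterol synthase, fell by 1.55, Idi1 by 1.43 and Fdps by 1.16. Of 14 tested genes of fatty acid synthesis 10 fell, with Scd1, a stearoyl desaturase, at -1.62 and Acaca, which makes malonyl-CoA, at -0.87. The exporter Abca1 stood among the greatest rises, as given above. The factors Srebf2, of sterol genes, and Srebf1, of fatty acid genes, changed by -0.32 ± 0.22 (called, lost without IFN.6226) and -0.15 ± 0.22 (not called).

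**Figure D4:**
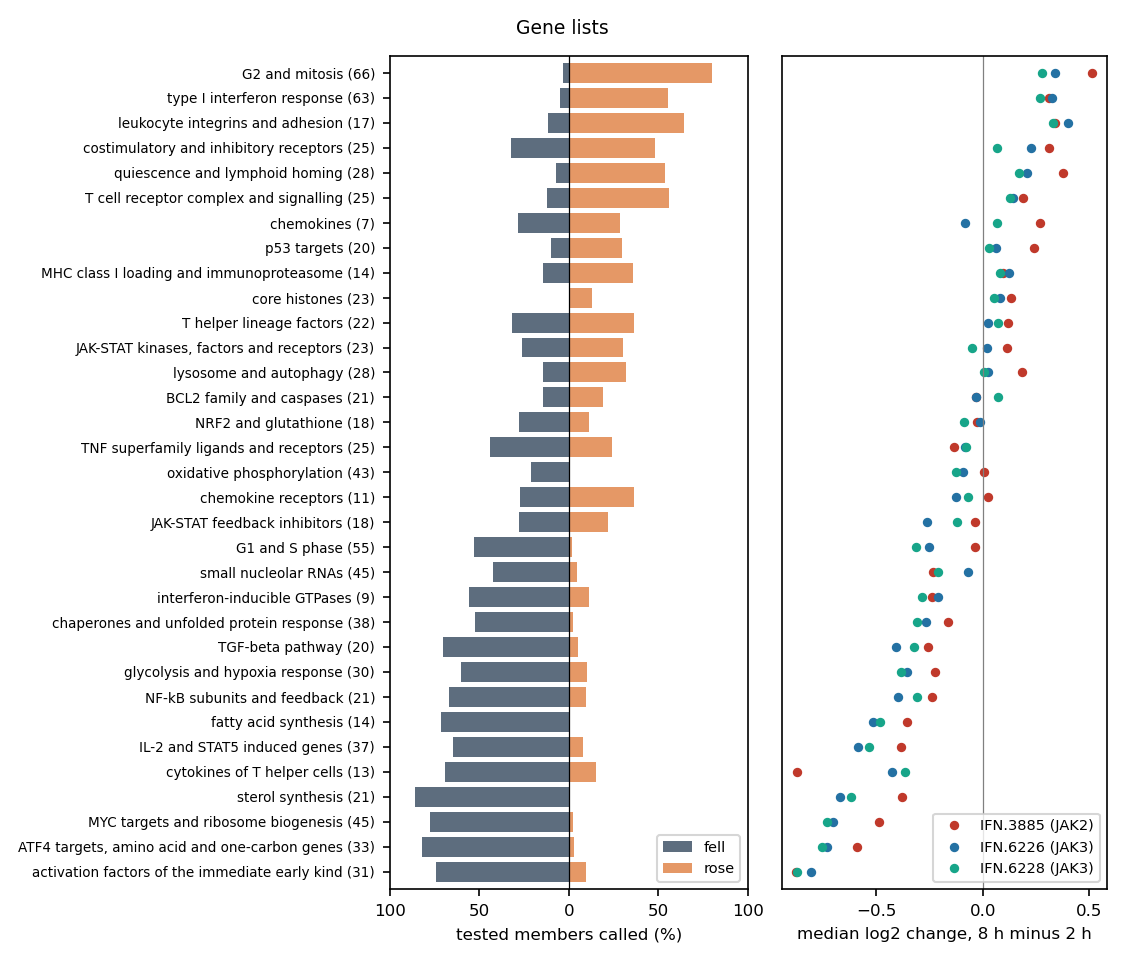
Gene lists sorted by median change, with the number of tested members in brackets. Left, bars show the percent of tested members called as risen (to the right) or fallen (to the left), against 19.4% and 17.1% of all genes. Right, points show the list median of the log2 change in each compound. Mitosis and the type I interferon list are at the top, and early activation genes, ATF4 targets and MYC targets at the bottom.

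Amino acid supply and glycolysis genes fell. Of 33 tested targets of ATF4, the factor of the amino acid response, with amino acid and folate cycle genes, 27 fell, and the median was -0.69. Asns, the asparagine synthetase, was at 11.40, 11.46 and 11.52 at 2 h and 10.18, 9.92 and 10.03 at 8 h (-1.42 ± 0.17, adjusted p = 5.04e-07). Slc7a1, an arginine transporter, fell by 1.36, and Slc3a2, the heavy chain partner of Slc7a5, by 0.77. Atf4 itself fell by 0.70. The single rise was Ddit3 (CHOP), at 0.68 ± 0.12 (adjusted p = 0.000659). Of 30 glycolysis and hypoxia genes 18 fell, and 3 rose (1 without IFN.6226). Tpi1, triose phosphate isomerase, was at 12.18, 12.19 and 12.13 at 2 h and 11.35, 11.07 and 11.12 at 8 h (-0.99 ± 0.15, adjusted p = 1.29e-06), with Bnip3, a mitophagy receptor induced in hypoxia, at -1.35 and Pgam1 at -0.73. The glucose transporter Slc2a1 changed by 0.12 ± 0.15 and the kinase Hk1 by 0.09 ± 0.13, without a call.

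Ribosome building fell along with Myc. Of 45 tested MYC targets and ribosome biogenesis genes 35 fell and 1 rose, with medians of -0.49, -0.70 and -0.73 in the 3 compounds. Srm, the spermidine synthase, was at 11.80, 11.56 and 11.54 at 2 h and 10.71, 10.14 and 10.16 at 8 h (-1.29 ± 0.18, adjusted p = 5.48e-07). Polr1b, a subunit of RNA polymerase I, fell by 1.25, the nucleolar protein Nolc1 by 1.15 and Odc1, which starts polyamine synthesis, by 1.22. The single rise was Mxd4, a MAX partner that opposes MYC, at 0.72 ± 0.04. Npm1, an abundant nucleolar protein, changed by -0.01 ± 0.14, without a call. Small nucleolar RNAs, which guide the modification of ribosomal RNA, fell in 19 of 45 tested cases and rose in 2. The falls numbered 10 without IFN.6226 and 9 without IFN.6228, and the rises 7 without IFN.3885 and 1 without either JAK3 compound. Snord118, the U8 RNA, was at 9.54, 9.55 and 9.32 at 2 h and 8.42, 8.52 and 8.38 at 8 h (-1.03 ± 0.09, adjusted p = 1.14e-05). Many of these RNAs lie in introns of host genes, and a probe set may also read the host transcript.

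Of the 33 gene lists, leaving aside the cell type markers, mitosis had the greatest share of rises. Of 66 tested genes of G2 and mitosis 53 rose, and 50 of these rose in the 14-array fit as well. The median was 0.37, with 0.51 under IFN.3885, 0.34 under IFN.6226 and 0.28 under IFN.6228. Cdc25b, the phosphatase that starts mitotic entry, was at 10.04, 10.22 and 10.18 at 2 h and 11.44, 11.21 and 11.21 at 8 h (1.14 ± 0.23, adjusted p = 1.13e-06). The times were apart by about 1 unit or more. Pimreg rose by 0.93, the mitotic kinesin Kif20a by 0.70 and Smc4, of the condensin complex, by 0.52. Plk1 rose by 0.50 and Ccnb2 by 0.38, while Cdk1 changed by 0.13 ± 0.15, without a call. Only Mybl2 and Plk4 fell (-0.35 and -0.29), and neither was called without IFN.6226 or without IFN.6228.

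In the list of G1 and S phase, with 55 tested genes, 29 fell and 1 rose, with medians of -0.03 under IFN.3885, -0.25 under IFN.6226 and -0.31 under IFN.6228. The falls numbered 44 without IFN.3885, 8 without IFN.6226 and 13 without IFN.6228. E2f1, the factor of S phase entry, was at 10.16, 10.24 and 10.17 at 2 h and 9.91, 9.38 and 9.49 at 8 h (-0.60 ± 0.32, adjusted p = 0.000411), and E2f3 fell by 0.79. In both, the fall under IFN.3885 was the smallest, at -0.25, -0.86 and -0.69 for E2f1, and the difference between the JAK2 and JAK3 compounds did not pass (adjusted p = 0.523 for E2f1). Dtl fell by 0.53, whereas the replication genes Pcna (-0.12, lost without IFN.6226 or IFN.6228), Rrm2 (0.01 ± 0.10, not called) and Tyms (0.02 ± 0.12, not called) moved little. The rise was Ccnd3, cyclin D3, at 0.33 ± 0.06 (adjusted p = 0.0108). Of 23 core histone genes 3 rose (13.0%, against 19.4% of all genes, and 5 without IFN.3885). H2bc21 rose by 0.66, H4c14 by 0.16, with an adjusted p of 0.12 in the 14-array fit, and H2ac4 by 0.40, where that p was 0.298. Near-identical histone genes can share probes.

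Among 38 chaperones and genes of the unfolded protein response 20 fell and 1 rose, Dnajc3, a call lost without IFN.6226 or IFN.6228. The mitochondrial chaperone Hspa9 was at 11.43, 11.37 and 11.50 at 2 h and 10.61, 10.32 and 10.34 at 8 h (-1.01 ± 0.18, adjusted p = 2.97e-07), its partner Hspd1 fell by 0.67, Xbp1 by 0.64 and Hsp90aa1 by 0.47. Respiratory chain genes were close to level. Of 43 tested, 9 fell (20 without IFN.3885, 2 without IFN.6226, 3 without IFN.6228), with a median of -0.09, and cytochrome c, Cycs, fell by 0.22. Lysosome and autophagy genes rose in 9 of 28 cases (4 without IFN.6226), and 4 fell (all 4 lost without IFN.6226). Ctsd, cathepsin D, was at 10.18, 10.51 and 10.46 at 2 h and 11.10, 11.36 and 11.32 at 8 h (0.88 ± 0.04, adjusted p = 2.55e-07), and Neu1, a lysosomal sialidase, rose by 0.75.

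Death and stress genes gave mixed counts. Of 21 BCL2-family and caspase genes 4 rose (19.0%) and 3 fell (14.3%), close to the 19.4% and 17.1% of all genes. The falls numbered 6 without IFN.3885 and 1 without IFN.6226. Apaf1, the scaffold of the apoptosome, rose by 0.72 and Xiap, a caspase inhibitor, by 0.52, while Mcl1 changed by 0.07 ± 0.02. Of 20 p53 targets 6 rose (30%) and 2 fell (10%, 1 without IFN.6226), with Sesn1 at 0.72 and Trp53inp1 at 0.51. Of 18 NRF2 and glutathione genes 2 rose (11.1%, both lost without either JAK3 compound) and 5 fell (27.8%). All 5 falls were lost without IFN.6226, and 1 was kept without IFN.6228. Gclc, of glutathione synthesis, changed most, by -0.43 ± 0.17.

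The JAK2 compound was then set against the JAK3 compounds. The difference of their 8 h minus 2 h changes passed for 0 of 11851 genes (0%) in limma, where 1121 genes had an unadjusted p under 0.05 and the smallest adjusted p was 0.523. The lone JAK2 pair took its spread from the other compounds. Fitted on the 3 compounds alone, with 1 residual degree of freedom, the same contrast called 2221 genes. The 5 genes with the smallest p were Epas1, the hypoxia factor HIF-2 alpha, with JAK2 minus JAK3 at 1.18 (SE 0.19), Atg2a at 0.87 (SE 0.17), Igfbp4 at 1.04 (SE 0.20), 1810034E14Rik at 1.19 (SE 0.24) and Fbxw10 at -0.80 (SE 0.18). The adjusted p was 0.523 in all 5. Epas1 was at 9.46, 9.32 and 9.16 at 2 h and 8.93, 7.54 and 7.52 at 8 h, with changes of -0.53, -1.78 and -1.64. Over all genes the median of this difference was 0.14, and it was -0.08 when each array was centred on the genes tested, so small differences have no settled sign.

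More genes rose under IFN.3885 than fell. At 1.5-fold or more, IFN.3885 had 1023 rises (8.63%) and 356 falls (3%), IFN.6226 had 398 (3.36%) and 579 (4.89%), and IFN.6228 had 302 (2.55%) and 684 (5.77%). All 3 pairs passed that size upward in 215 genes (1.81%) and downward in 269 (2.27%). With genes split by brightness into 5 equal groups, the median change under IFN.3885 was -0.11 in the dimmest and 0.05, 0.17, 0.11 and 0.08 in the others. Under IFN.6228 it ran from 0.09 in the dimmest to -0.09 in the next to brightest. The upper quartile of intensity was 455 on the IFN.3885 array at 2 h, the lowest of the 6, and 497 at 8 h, the highest. The part of this brightness pattern in the counts was not tested.

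The time change under these compounds was last set against that under the 4 compounds labelled JAK1, JAK1/2, PAN or TYK2. In limma on 1 change per compound, 12 of 11851 genes differed (0.101%), while 1192 had an unadjusted p under 0.05. All 12 had the lower change under the JAK2 or JAK3 compounds. The test compares changes alone, and levels under the other 4 compounds are not given here. By this test alone a higher level at 2 h and a lower level at 8 h cannot be told apart as the source of a smaller change. The series holds arrays of both times for every compound, but their levels were not compared between the classes here. Usp18 changed by 0.46 ± 0.04 here (SD, n = 3) and by 1.52 ± 0.14 under the others (SD, n = 4). Ifit1 changed by 0.34 ± 0.05 against 1.34 ± 0.17. Gm12250 was level under the 3 compounds, at -0.05 ± 0.04, and changed by 0.65 ± 0.09 under the other 4. The count was 2 without IFN.3885, IFN.6226, IFN.6228 or IFN.6221 and 40 without IFN.3404. The type I interferon list had a median change of 0.34 here and 0.64 under the other compounds. The list medians here and under the other compounds were -0.99 and -0.76 for early activation genes, -0.56 and -0.70 for sterol synthesis and -0.63 and -0.77 for MYC targets, and no member of those 3 lists passed the test of the difference. They were -0.23 and -0.03 for the interferon-inducible GTPases and -0.17 and -0.35 for G1 and S phase.

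**Figure D5:**
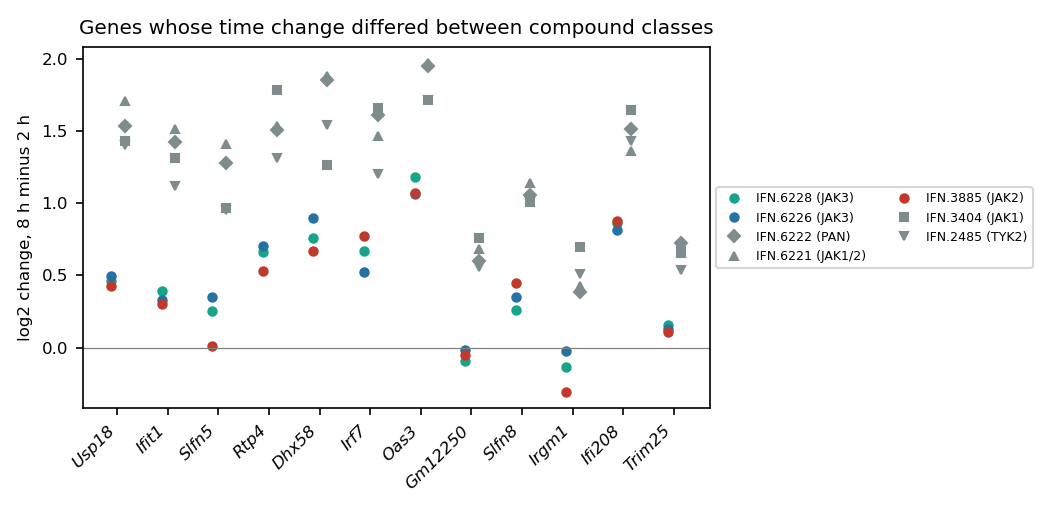
Change of the 12 genes whose 8 h minus 2 h change differed between compound classes. The y axis is the log2 change, coloured circles are the 3 compounds labelled JAK2 or JAK3, and grey symbols the 4 labelled JAK1, JAK1/2, PAN or TYK2. All circles of a gene lie below all grey symbols, which the choice of genes by this difference favours. Usp18 is at 0.46 against 1.52 on average.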

How the data were processed

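The deposited values are intensities, 1 per probe set and array of the Affymetrix Mouse Gene 1.0 ST design; per the submitters' processing notes the authors used Affymetrix Power Tools and RMA, with no version given. Which arrays were normalized together is not given in the sources used here. Values were put on the log2 scale. Of 24922 probe sets, 21425 had 1 gene symbol (19752 symbols), 1399 several and 2098 none; RefSeq names (GRCm38.p6) held 21347 identifiers and changed 0 symbols. A gene's brightest probe set was used if its mean log2 intensity reached the 40th percentile (6.27), which left 11851 genes. The precision is limited by the number of arrays.

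Tests used limma 3.58.1 in R 4.3.3 (lmFit, eBayes with trend=TRUE, two-sided, Benjamini-Hochberg over all genes tested, threshold 0.05), and figures matplotlib 3.10.9 in Python 3.11.15. The 6 arrays were fitted with compound as block and time. Compound classes were compared on 1 change per compound (7 values). Steps were checked on simulated data.

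The comparisons and the 33 gene lists and 11 marker lists were chosen with earlier results of these data known. Named genes are the 15 greatest changes in each direction, up to 4 members per list by moderated t, genes that passed between compounds (up to 10, otherwise the 5 smallest p), and preset JAK-STAT pathway genes; others, such as Oas2, Ddx60, Rsad2, Mx1, Fos, Ccr7, Ifi208 and Trim25, were added with their values in view. Alternatives covered normalization, filter, probe sets, moderation, offset, fold, block and each compound left out; centring on the tested genes was added after seeing the data.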

Additional observations from a re-analysis of the deposited data

Results flagged for a closer look

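For 12 genes the 8 h minus 2 h change differed between the 3 compounds labelled JAK2 or JAK3 and the 4 labelled JAK1, JAK1/2, PAN or TYK2, by the limma test of the difference itself. Each difference below is the change under the first set minus that under the second, on the log2 scale. The changes of the 3 compounds lay below those of the 4 in each gene. The genes were chosen by this difference, which favours such separation, so it is no added support. The test compares changes and not levels, so a smaller change need not mean a lower level. It was -1.06 (SE 0.10, adjusted p = 0.000488) for Usp18, -0.999 (SE 0.11, adjusted p = 0.00166) for Ifit1 and -0.95 (SE 0.14, adjusted p = 0.0159) for Slfn5, a Schlafen family member. Rtp4 differed by -0.90 (SE 0.12, adjusted p = 0.00759), the RNA helicase Dhx58 by -0.86 (SE 0.14, adjusted p = 0.0308) and Irf7 by -0.83 (SE 0.12, adjusted p = 0.0149). For Oas3 it was -0.73 (SE 0.11, adjusted p = 0.0159), for Gm12250 -0.70 (SE 0.09, adjusted p = 0.00759) and for Slfn8 -0.70 (SE 0.10, adjusted p = 0.0149). Irgm1, an interferon-inducible GTPase, differed by -0.66 (SE 0.11, adjusted p = 0.0223), Ifi208 by -0.64 (SE 0.11, adjusted p = 0.0458) and the ubiquitin ligase Trim25 by -0.52 (SE 0.09, adjusted p = 0.0458). Over all genes the median of this difference was 0.09, and it was 0.14 with each array centred on its median and -0.05 with centring on the genes tested. Under the first set Gm12250, Irgm1, Slfn5 and Trim25 had no called change of their own, and the other 8 rose, among them Slfn8, whose call was lost without IFN.6226.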

How the results depend on the processing

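No gene called in the 6-array fit was called in the opposite direction under any alternative tried. The total of 4331 calls was 2354 (1390 rose, 964 fell) with the JAK3 compounds averaged, which leaves 2 pairs, and 918 (452 rose, 466 fell) with at least 1.5-fold required. With each compound left out in turn it ran from 1812 to 5601 (1033 to 2431 rose, 779 to 3170 fell). The other settings gave 3457 to 5235 calls, with median centring the lowest and quantile normalization the highest. Between compound classes, the 12 genes became 23 with quantile normalization, 26 with cyclic loess, 25 with centring on the genes tested, 6 with median centring and 7 with an offset of 50 added, and 2 to 40 with compounds left out in turn. Between JAK2 and JAK3 the 0 calls became 2221 on the 3 compounds alone. Of 528 list medians recomputed, 13 moved beyond the spread between compounds. Of 3300 recomputed changes of named genes 116 lost their call and 23 gained one. The losses include called genes under 1.5-fold in the setting that requires that size, where the rule itself removes the call. The cause of the other losses, the gains and the moved medians was not tested. The 6-array fit has the compound as block, and without it 4468 genes were called. No paired analysis by replicate number was possible because each group holds 1 array. With 3 pairs and no repeated array, the data cannot give the spread between cultures, and a dim gene near the filter is measured only as its signal over background allows.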

Other observations

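Neighbouring members of 2 gene families rose together from 2 h to 8 h under IFN.3885, IFN.6226 and IFN.6228; these genes and the others in this section were chosen after their values were seen, so the values are descriptions. Among 6 tested genes of the p200 family on chromosome 1, whose products sense DNA or act in the nucleus, Ifi213 (1.23), Ifi214 (1.02), Ifi209 (0.91), Ifi208 (0.85) and Ifi203 (0.77) rose. Aim2, the DNA sensor of the inflammasome, was at 8.20, 8.32 and 8.44 at 2 h and 8.44, 8.37 and 8.34 at 8 h (0.06 ± 0.17, adjusted p = 0.752), with the times overlapping. Ifi213 was at 9.41, 9.56 and 9.63 at 2 h and 10.70, 10.84 and 10.74 at 8 h, fully apart. Of 9 tested Ms4a genes on chromosome 19, which encode membrane proteins that span the membrane several times, Ms4a4c (1.14), Ms4a4b (1.03), Ms4a4d (1.00), Ms4a1 (0.89), Ms4a6b (0.77) and Ms4a6c (0.59) rose. Ms4a1 is the B cell antigen CD20, and its part in the others was not tested. Members of each family resemble one another, and shared probes cannot be told apart here.

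Tlr7, a receptor for single-stranded RNA that B cells also carry, rose by 1.13 and Tlr1 by 0.50, while Tlr2 changed by 0.07 ± 0.20 and Tlr9 by 0.06 ± 0.10, without a call. Nlrc3, an inhibitor of innate signalling, rose by 0.94, and Nod2 changed by 0.17 ± 0.11, against the rise of 1.53 in Nod1. The H3K27 demethylase Kdm6b was at 10.45, 10.58 and 10.47 at 2 h and 9.20, 8.87 and 8.92 at 8 h (-1.50 ± 0.24, adjusted p = 1.73e-07), and the H3K4 demethylase Kdm5b rose by 0.71. The methyltransferases Ezh2 (0.02 ± 0.11) and Dnmt1 (-0.01 ± 0.10) had no call. The stress gene Gadd45b fell by 1.49 and the corepressor Bcor by 1.19. Spry1, an inhibitor of Ras signalling, fell by 1.13.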
